A study of Homo sapiens with 19 samples.

Results

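The cancer-testis antigen genes described here are the protein-coding genes of the MAGE-A, MAGE-B, MAGE-C, GAGE, XAGE, PAGE, SSX and CTAG families together with PRAME and DDX53, matched by gene symbol with no cut on a measured value. The symbol rule found 47 genes among 44717 gene identifiers in the count data. SSX2IP, which encodes an interaction partner of SSX2 and is no cancer-testis gene, matched by its name only and was set apart, which left 46 genes. Of these, 45 lie on the X chromosome and PRAME lies on chromosome 22. BAGE, CTAG1A, MAGEA2, SSX4 and XAGE1A were not among the identifiers and were not analysed here.

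RNA-seq counts were examined from 19 samples in 7 groups. 501Mel, a human melanoma cell line, carried lentiviral short hairpin RNAs against BRG1 (shBRG1, 3 samples) or MITF (shMITF, 2 samples), or scramble hairpins labelled shSCR1 (3 samples, the control of shBRG1) and shSCR2 (2 samples, the control of shMITF). Hermes 3A, an untransformed human melanocyte line kept in medium with growth factors and a phorbol ester, carried shBRG1, shMITF or a scramble hairpin, shSCR, with 3 samples of each. Every cell, controls included, had been infected with a hairpin vector and selected with puromycin. The methods name a single hairpin construct for each target, so that loss of the target and other effects of its hairpin cannot be told apart. The paper also reports growth arrest and senescence in both lines after silencing of either target. Each line is a single genetic background, and the methods describe infections done in 3 or more repeats without tying the sequenced samples to separate infections, so that p-values measure only the spread between these samples, which may be technical. BRG1, encoded by SMARCA4, is the ATPase of the SWI/SNF chromatin remodelling complexes, and MITF is the transcription factor that directs the melanocyte lineage.

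Cancer-testis antigens are proteins made mainly in germ cells of the testis and kept silent in most adult tissues, in large part by DNA methylation of their promoters. Many tumours, melanoma among them, express them again, and several were discovered as targets of T cells in melanoma patients. MAGE proteins bind and direct ubiquitin ligases, SSX proteins are nuclear repressors, PRAME is a leucine-rich repeat protein that serves as a substrate receptor of a ubiquitin ligase, CTAG genes encode the NY-ESO-1 and LAGE antigens, DDX53 encodes a DEAD-box helicase, and the GAGE, PAGE and XAGE families encode small acidic proteins.

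Promoter sequences were available in a RefSeq table (GRCh38.p14, 250 bases before to 50 bases after the start) for 40 of the 46 genes; MAGEA10, MAGEA1, CTAG2, CTAG1B, MAGEB17 and SSX3 had no entry. The 5 printed here belong to MAGEB6, MAGEB16 and MAGEC2, which rose with shBRG1 in 501Mel cells, to MAGEB2, which fell, and to SSX1, which moved in both lines. They are written 5′ to 3′ on the strand of the gene, with each CG dinucleotide, the site of DNA methylation, in capitals. MAGEB6 lies at chrX:26192190-26192489 on the plus strand, MAGEB16 at chrX:35798092-35798391 on the plus strand, MAGEC2 at chrX:142205241-142205540 on the minus strand, MAGEB2 at chrX:30215313-30215612 on the plus strand and SSX1 at chrX:48255142-48255441 on the plus strand.
MAGEB6: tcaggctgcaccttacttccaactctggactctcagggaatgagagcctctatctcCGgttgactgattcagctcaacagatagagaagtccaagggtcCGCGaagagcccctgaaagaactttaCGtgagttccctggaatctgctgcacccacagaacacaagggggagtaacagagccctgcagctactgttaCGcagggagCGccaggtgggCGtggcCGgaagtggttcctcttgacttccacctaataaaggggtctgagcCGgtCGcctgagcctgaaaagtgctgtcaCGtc
MAGEB16: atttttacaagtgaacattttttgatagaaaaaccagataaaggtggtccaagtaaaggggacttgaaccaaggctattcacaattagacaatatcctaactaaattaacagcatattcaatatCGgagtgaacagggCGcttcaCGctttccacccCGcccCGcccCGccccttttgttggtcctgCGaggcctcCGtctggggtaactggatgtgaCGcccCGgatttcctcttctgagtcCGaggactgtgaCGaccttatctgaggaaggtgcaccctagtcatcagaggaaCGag
MAGEC2: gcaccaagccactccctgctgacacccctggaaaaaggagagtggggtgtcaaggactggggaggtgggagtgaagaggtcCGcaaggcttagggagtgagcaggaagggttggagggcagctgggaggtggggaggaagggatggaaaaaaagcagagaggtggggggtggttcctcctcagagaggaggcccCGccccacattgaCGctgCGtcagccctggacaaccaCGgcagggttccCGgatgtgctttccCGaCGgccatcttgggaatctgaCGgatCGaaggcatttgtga
MAGEB2: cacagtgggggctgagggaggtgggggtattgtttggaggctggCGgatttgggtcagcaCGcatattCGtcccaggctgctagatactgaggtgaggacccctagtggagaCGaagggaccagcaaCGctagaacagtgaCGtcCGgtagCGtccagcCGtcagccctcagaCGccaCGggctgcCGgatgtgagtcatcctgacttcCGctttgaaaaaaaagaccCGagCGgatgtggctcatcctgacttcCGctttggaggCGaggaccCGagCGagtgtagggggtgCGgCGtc
SSX1: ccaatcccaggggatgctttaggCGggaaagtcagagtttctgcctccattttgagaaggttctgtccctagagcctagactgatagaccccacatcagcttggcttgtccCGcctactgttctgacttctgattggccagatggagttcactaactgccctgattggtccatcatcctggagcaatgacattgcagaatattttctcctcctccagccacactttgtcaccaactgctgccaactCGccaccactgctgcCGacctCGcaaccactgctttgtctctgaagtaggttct

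These windows held 11 CG dinucleotides for MAGEB6, 13 for MAGEB16, 10 for MAGEC2, 21 for MAGEB2 and 5 for SSX1. The median was 11.5 over the 40 promoters and 14 over all 35116 promoters in the table. GC content was close, with a median of 57.2% against 58.7%. The letters CCGGAA, a core that ETS factors bind, were searched on both strands and occurred in 5 of the 40 promoters (DDX53, MAGEA3, MAGEA6, MAGEB6 and PRAME), against 17.2% of all promoters. The E-box CACGTG, of the kind that MITF binds, occurred in 10 of the 40, against 7.26% of all, and these were 5 GAGE promoters, 4 PAGE promoters and that of XAGE3; the GAGE promoters belong to near-identical copies and are not independent. The related letters CATGTG occurred in 2 of the 40, MAGEA9 and PAGE3, against 11.1% of all. A match describes the letters in the window only.

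Silencing was checked in the targeted genes. SMARCA4 fell with shBRG1 by 2.36 on the log2 scale (SE 0.05, edgeR adjusted p = 3.715e-21) in 501Mel cells and by 2.38 (SE 0.05, adjusted p = 1.612e-24) in Hermes 3A cells. MITF fell with shMITF by 1.06 (SE 0.14, adjusted p = 0.001434) in 501Mel cells, and was under the threshold of size without shSCR2 replicate 2 (-0.99) or shMITF replicate 1 (-0.98). In Hermes 3A cells its log2 difference was -0.85 (SE 0.19, adjusted p = 0.01944), past the threshold on p and under that on size. MITF also fell with shBRG1 in 501Mel cells, by 1.55 (SE 0.06, adjusted p = 8.039e-16). The 501Mel controls differed from each other: on a scale common to all samples MITF lay at 575.2 ± 54.05 CPM (counts scaled to library size with edgeR; SD, n = 3) with shSCR1, 1117 ± 97.83 (n = 2) with shSCR2 and 520.2 ± 37.1 (n = 2) with shMITF, and against shSCR1 the log2 difference with shMITF was -0.12 (SE 0.10, adjusted p = 0.2838). Total counts per sample ranged from 29158502 to 78857900. Throughout, a gene was called higher or lower at an adjusted p under 0.05 with an absolute log2 fold change over 1.

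At baseline the melanoma line carried many of these transcripts and the melanocyte line almost none. In 501Mel cells with shSCR1, 17 of the 46 genes had a mean of at least 100 counts and 12 had at least 1000, and in shSCR2 cells these numbers were also 17 and 12. In Hermes 3A cells with shSCR only SSX1 reached 100, 33 of the 45 genes listed were at 0 in every sample, and 8 of the other 12 had at most 10 counts over the 3 samples. Summed over the genes, the level was 1926 ± 20.07 CPM (SD, n = 3) with shSCR1, 2587 ± 96.17 (n = 2) with shSCR2 and 8.153 ± 0.7955 (n = 3) in Hermes 3A shSCR cells. PRAME supplied between 25.6% and 38.2% of the cancer-testis counts in each 501Mel sample, and SSX1 between 78.6% and 92.8% in each Hermes 3A sample.

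**Figure D1:**
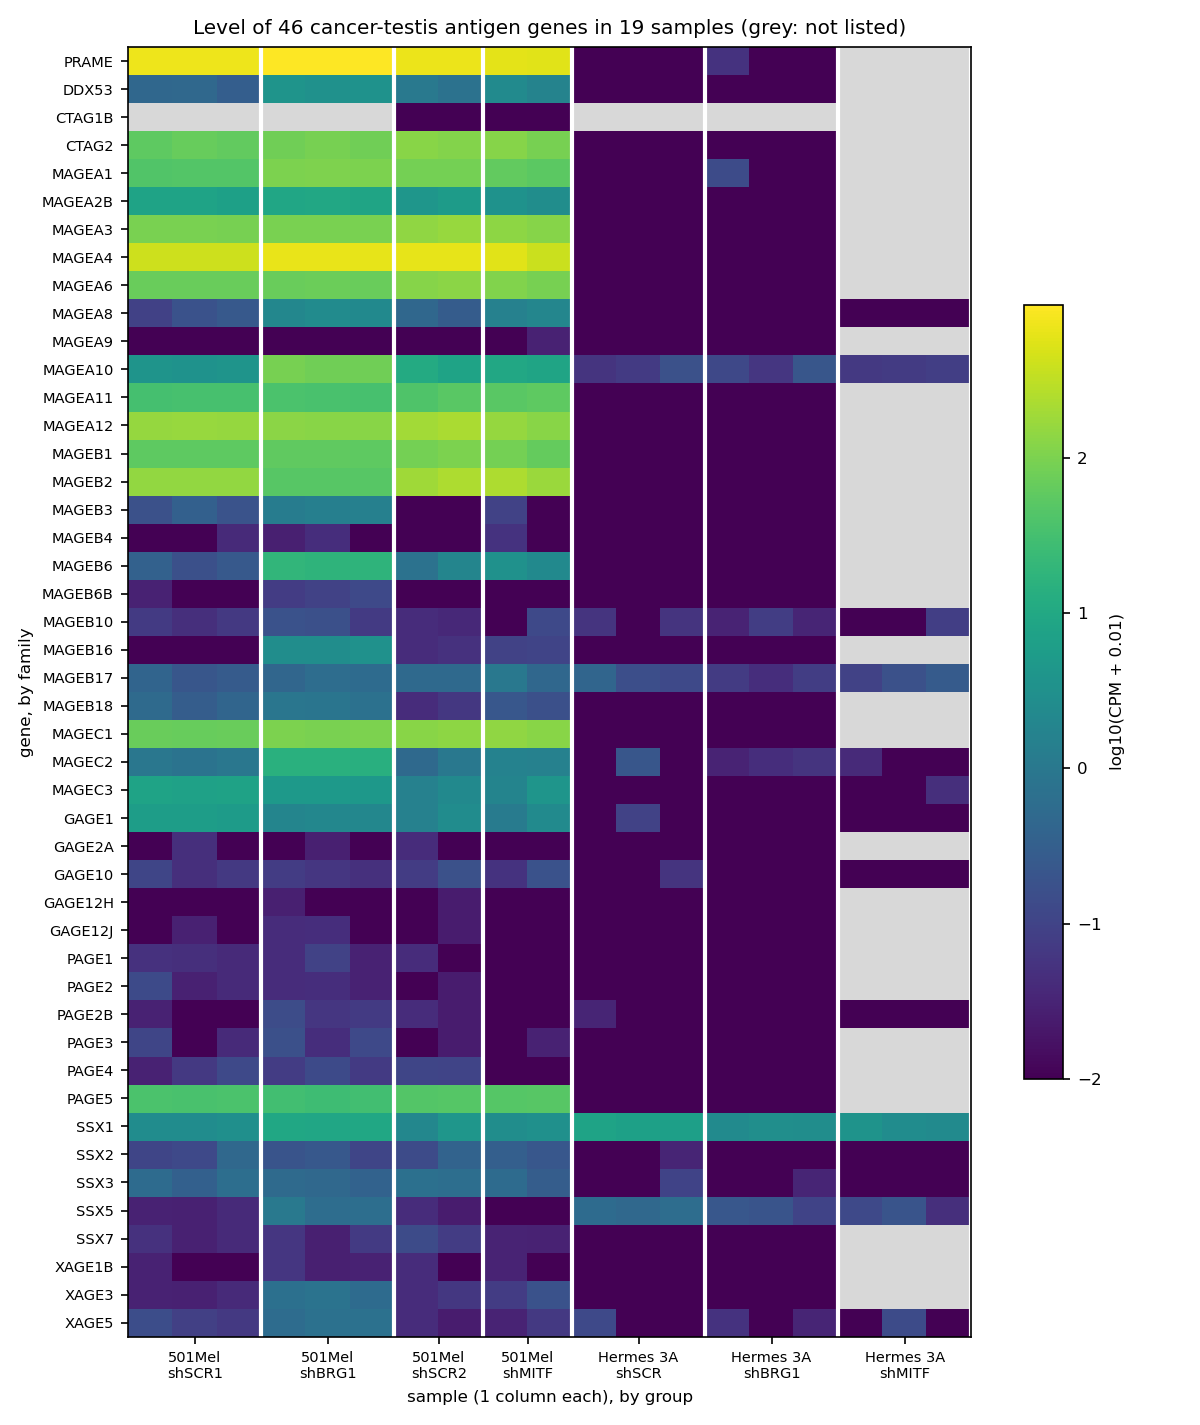
Level of each of the 46 genes (rows, by family) in each of the 19 samples (columns, by group), as log10(CPM + 0.01) on a scale common to all samples; grey marks genes that the files do not list for a group. PRAME and most MAGE-A genes are bright in all 10 501Mel samples, and SSX1 is the brightest row in the 9 Hermes 3A samples.

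PRAME had 35469, 38718 and 24163 counts in the shSCR1 samples, 21278 and 51682 in the shSCR2 samples, and 0 in each Hermes 3A shSCR sample. Expressed per kilobase of exon, the order in shSCR1 cells began with PRAME at 180.4 ± 2.789 CPM per kb (SD, n = 3), followed by MAGEA4 at 121.3 ± 0.1689, MAGEB2 at 87.61 ± 1.59, MAGEA12 at 77.57 ± 0.4301 and CTAG2 at 58.18 ± 4.375. These neighbours differed by more than their SDs. In shSCR2 cells the order was not the same, since MAGEA4, at 195.7 CPM per kb, stood above PRAME at 176.6. MAGEA3 and MAGEA6 share 54.9% of the 50-base stretches of MAGEA3, so that reads could be divided between them, and their levels are uncertain. CTAG2 shares 43.1% of its stretches with CTAG1A, which was not among the identifiers, so that its level and place in the order are uncertain too. Other near-identical copies are treated likewise: SSX2 shared all of its 50-base stretches (100%) with SSX2B, MAGEA9 94% and MAGEA2B 88.1%, and of the 46 genes 11 shared at least 50% and 23 under 10%.

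Of the 26 genes that passed the filter on low counts, 23 were higher in 501Mel than in Hermes 3A scramble controls and 2 were lower, where 20.1% of all 20354 genes tested were called higher and 18% lower. Of the 26 genes, 18 were at 0 in every Hermes 3A sample, passed the filter through 501Mel cells alone and could only be called higher, so that the count is not read against these shares. Of the 8 with counts in both lines, 5 were higher, 2 lower and 1, MAGEB17, was not called. The 5 called higher had 1 to 11 counts over the 3 Hermes 3A samples and passed the filter through 501Mel cells. SSX5, called lower with 1 count in each 501Mel sample, passed it through Hermes 3A cells. The direction of these calls was nearly fixed by the filter, and their numbers are not read as a result. Where Hermes 3A is at 0 a fold change is a lower bound, set against 3 counts over the Hermes 3A group (0.02344 CPM). PRAME was at least 28850-fold higher, MAGEA4 at least 20100-fold, MAGEA12 at least 7431-fold and CTAG2 at least 3476-fold. Such bounds could be given for 26 genes with more than 3 counts in 501Mel, and 14 of these were 100-fold or more. MAGEA10 had 2, 2 and 7 counts in Hermes 3A shSCR cells, and its level in 501Mel was higher by 5.98 on the log2 scale (SE 0.29, adjusted p = 8.99e-12). These are bulk cultures, in which fewer expressing cells and less RNA per cell cannot be told apart. With 1 line of each kind, transformation cannot be told apart from other differences between the lines, their media included.

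SSX1 and SSX5, neighbours on the X chromosome that encode nuclear repressors of the SSX family, ran the other way. SSX1 had 127, 137 and 104 counts with shSCR1, 61 and 311 with shSCR2, and 345, 232 and 286 in Hermes 3A shSCR cells. At 2.589 ± 0.2504 (n = 3) and 2.967 ± 1.509 (n = 2) against 6.721 ± 0.6608 CPM (n = 3), it was lower in 501Mel by 1.25 on the log2 scale (SE 0.18, adjusted p = 1.469e-05). SSX5 had 1 count in each of the 5 501Mel scramble samples and 24, 16 and 26 in Hermes 3A, a log2 difference of -4.53 (SE 0.48, adjusted p = 2.4e-07). The levels of both genes did not overlap between the lines.

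Silencing of BRG1 in 501Mel cells raised 12 cancer-testis genes and lowered 2. These are 12 and 2 of the 30 that passed the filter on low counts (40% and 6.667%), beside 21.7% called higher and 17.4% called lower of all 20514 genes tested. Of the 12, 5 had a mean under 10 counts in the controls (MAGEA8, MAGEB16, SSX5, XAGE3 and XAGE5). MAGEB6 and MAGEB3 also had control samples under 10 counts. These genes passed the filter through the shBRG1 samples, where they are high. The 40% is therefore not read against the share of all genes. With at least 10 counts asked of every sample, 6 were higher and 2 lower. The 6 include MAGEB18 (log2 fold change 1.09), which is not among the 12, and leave out MAGEB6 and MAGEB3. The median log2 fold change was 0.567 over the 30 genes and 0.053 over all genes tested. Another 15 listed genes had too few counts to be tested, and CTAG1B was not listed for these groups. The share of all genes called higher depended on level: it was 40.7% among genes under 1 CPM (4 of 8 cancer-testis genes), 28.2% from 1 to 10 CPM (5 of 8) and 7.7% at 10 CPM or more (3 of 14). On the X chromosome as a whole, 23.3% of 686 genes tested were called higher, among them 12 of the 29 cancer-testis genes tested there. Genes that passed the filter through the shBRG1 samples are in these counts too, among them all 4 called under 1 CPM (MAGEB3, SSX5, XAGE3 and XAGE5). The counts by level and on the X chromosome are therefore not read against these shares. Of all calls, 55.5% were higher; with scaling by library sizes only, which moved the median of all genes from 0.05 to 0.40, this share was 72.1%, and 15 cancer-testis genes were higher and 2 lower.

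**Figure D2:**
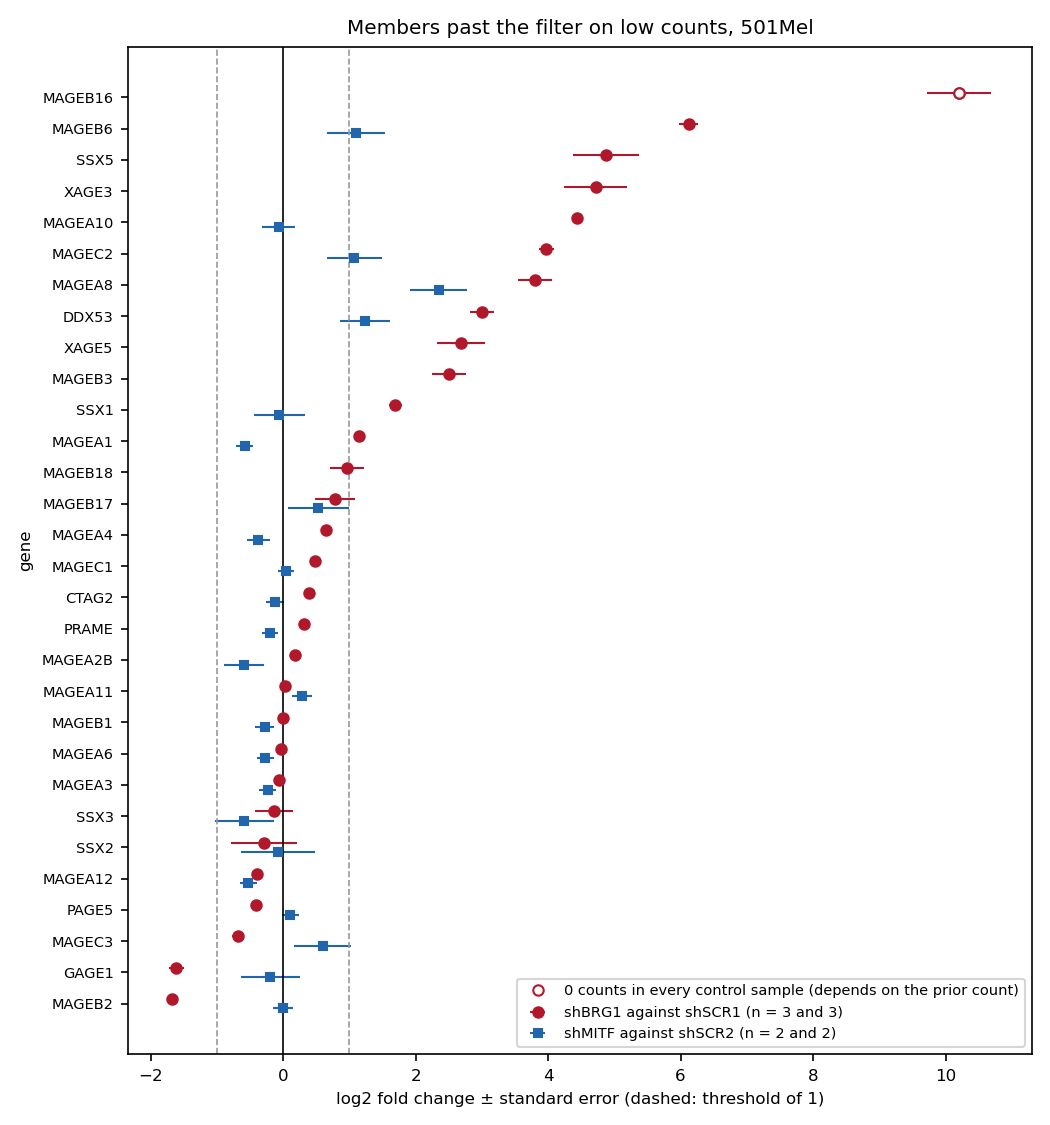
Log2 fold change with its standard error of the cancer-testis genes that passed the filter on low counts, for shBRG1 against shSCR1 (circles, 30 genes, n = 3 and 3) and shMITF against shSCR2 (squares, 24 genes, n = 2 and 2) in 501Mel cells; the open circle is MAGEB16, which had 0 counts in every control sample. The filled circles reach from -1.68 for MAGEB2 to 6.12 for MAGEB6, the open circle stands above them at a fitted value of 10.20 that depends on the prior count, and the squares lie between -0.59 and 2.35.

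The genes that rose furthest were low or silent in the controls. MAGEB16, a member of the MAGE-B family, had 0 counts in all 3 shSCR1 samples and 163, 164 and 168 with shBRG1, at least 127.6-fold higher (adjusted p = 2.129e-14). MAGEB6 had 17, 8 and 8 counts with shSCR1 and 1125, 1011 and 865 with shBRG1, a log2 fold change of 6.12 (SE 0.15, adjusted p = 1.148e-20). MAGEC2, which binds the ubiquitin ligase TRIM28, had 46, 42 and 32 counts against 868, 863 and 719, a log2 fold change of 3.97 (SE 0.11, adjusted p = 8.8e-20). No shBRG1 sample of these 3 genes overlapped a control sample.

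MAGEA10, the MAGE-A gene with the largest fold change, had 188, 183 and 127 counts with shSCR1 and 5300, 4545 and 4140 with shBRG1, which took it from 4.299 ± 0.2106 to 92.99 ± 6.313 CPM (SD, n = 3 each). The log2 fold change was 4.44 (SE 0.07, adjusted p = 1.543e-23). Of its 50-base stretches 13.9% are shared with an overlapping read-through transcript on the same strand, MAGEA10-MAGEA5, which had at most 14 counts in any sample.

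Other genes rose from a few counts. MAGEA8 had 4, 9 and 8 counts with shSCR1 and 121, 147 and 115 with shBRG1 (log2 fold change 3.79, SE 0.26). DDX53 had 22, 25 and 10 counts against 221, 195 and 176 (3.00, SE 0.18), and MAGEB3 had 8, 17 and 6 against 71, 82 and 75 (2.50, SE 0.26). Both XAGE genes tested rose: XAGE3 went from 1 count in each control to 40, 46 and 27, a ratio of 29.13 with a 95% counting interval of 9.716 to 143.3, and XAGE5 from 7, 4 and 2 counts to 33, 41 and 36 (log2 fold change 2.68, SE 0.36). The edgeR adjusted p of these genes was at most 4.226e-07. No control sample reached the level of a shBRG1 sample in any of them.

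Within the SSX family, SSX1 and SSX5 rose with shBRG1 and SSX2 and SSX3 were not called. SSX1 had 127, 137 and 104 counts with shSCR1 and 558, 518 and 471 with shBRG1 (log2 fold change 1.69, SE 0.10, adjusted p = 1.127e-13). SSX5 went from 1 count in each control to 60, 35 and 31, a ratio of 32.48 with a counting interval of 10.86 to 159.6. The pseudogene SSX6P, which shares 3.6% of the 50-base stretches of SSX1, moved alongside from 42, 29 and 33 counts to 184, 148 and 130. SSX2 had 5, 6 and 16 counts against 11, 13 and 5 and SSX3 27, 17 and 21 against 31, 28 and 18, and both overlapped their controls.

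**Figure D3:**
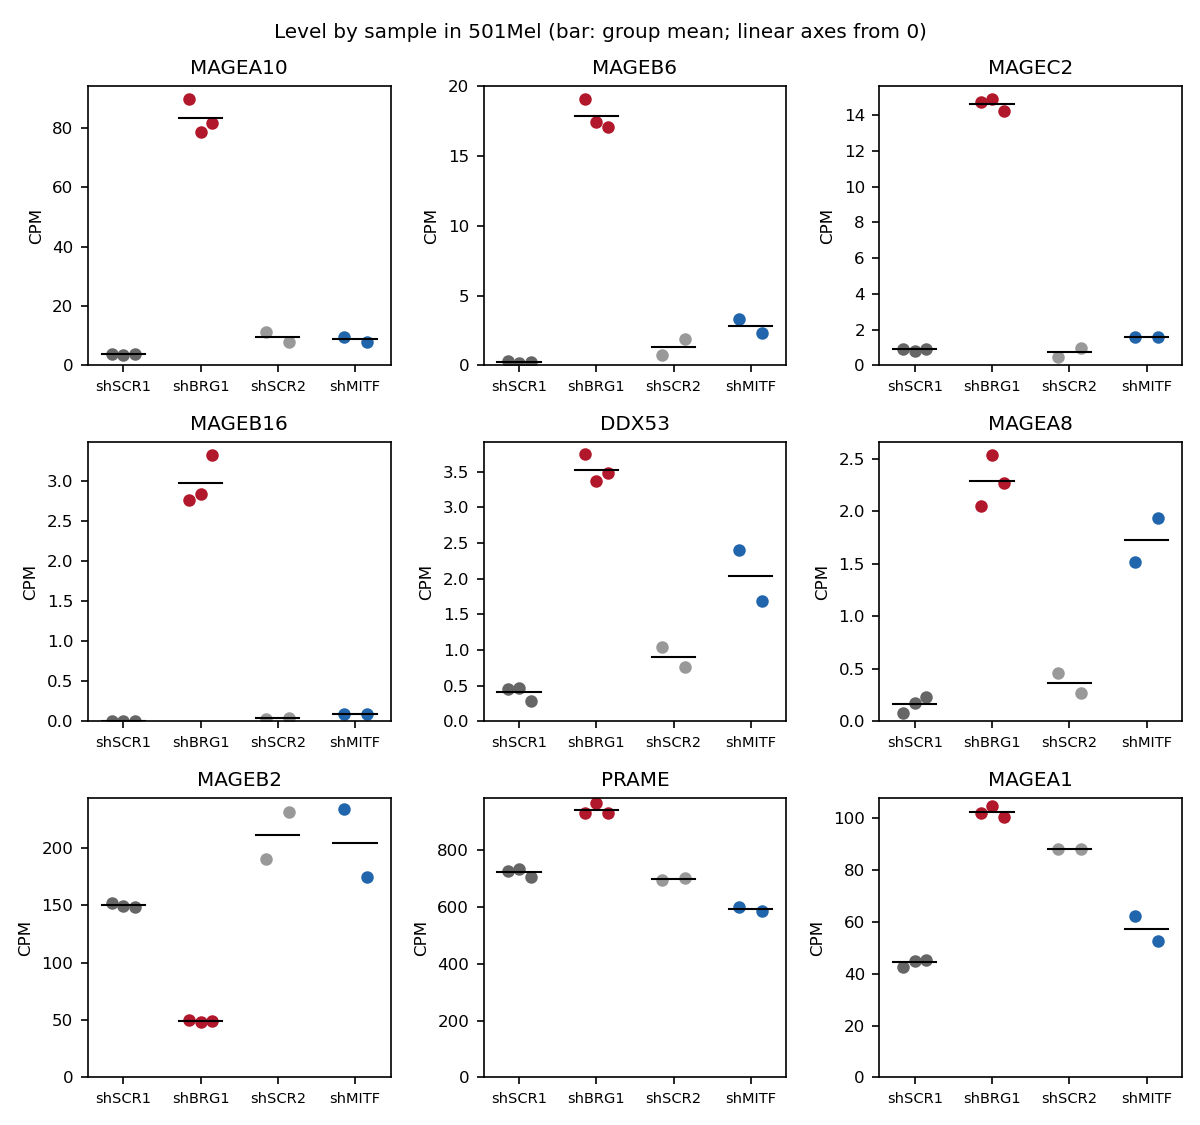
CPM on the common scale of 9 cancer-testis genes in each 501Mel sample, by group, with bars at the group means (n = 3, 3, 2 and 2). In MAGEA10, MAGEB6, MAGEC2 and MAGEB16 the 3 shBRG1 samples stand above all 7 others, and in MAGEB2 they stand below all 7.

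The genes most abundant at baseline had smaller fold changes, with MAGEB2 as an exception. PRAME went from 844.5 ± 16.71 to 1052 ± 23.27 CPM (n = 3 each), a log2 fold change of 0.32 (SE 0.05, adjusted p = 1.356e-06), under the threshold of size. MAGEA4 went from 463.7 ± 4.501 to 728.3 ± 17.71 CPM (0.65, SE 0.05), MAGEC1 from 79.12 ± 2 to 110.5 ± 1.26 (0.48, SE 0.05) and CTAG2 from 71.69 ± 6.015 to 94.08 ± 7.624 (0.39, SE 0.06). MAGEA12 and PAGE5 differed by -0.40 (SE 0.04) and -0.42 (SE 0.05). MAGEA1, the first MAGE gene to be identified, passed both thresholds, from 51.86 ± 1.874 to 114.3 ± 2.425 CPM (log2 fold change 1.14, SE 0.05, adjusted p = 3.236e-16). MAGEA3, MAGEA6, MAGEA11 and MAGEB1 had adjusted p-values between 0.2123 and 0.8753.

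MAGEB2, a MAGE-B gene high in the controls, fell with shBRG1, while a neighbour rose. It had 7432, 7836 and 5067 counts with shSCR1 and 2956, 2806 and 2468 with shBRG1, or 174.9 ± 1.929 against 54.78 ± 0.8591 CPM, and fell by 1.68 on the log2 scale (SE 0.05, adjusted p = 8.652e-20). In GENCODE 29 on GRCh38, MAGEB2 spans chrX:30215560-30220089 and MAGEB3, which rose, follows at chrX:30230436-30237492 on the same strand. MAGEB1, at chrX:30243730-30252038, measured 64.87 ± 0.7194 against 64.52 ± 0.9291 CPM. MAGEB2 and MAGEB3 share no 50-base stretch with another gene. GAGE1 also fell, from 290, 307 and 186 to 110, 118 and 102 counts (by 1.61, SE 0.11, adjusted p = 2.82e-12), and 12.9% of its 50-base stretches occur in other genes.

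**Figure D4:**
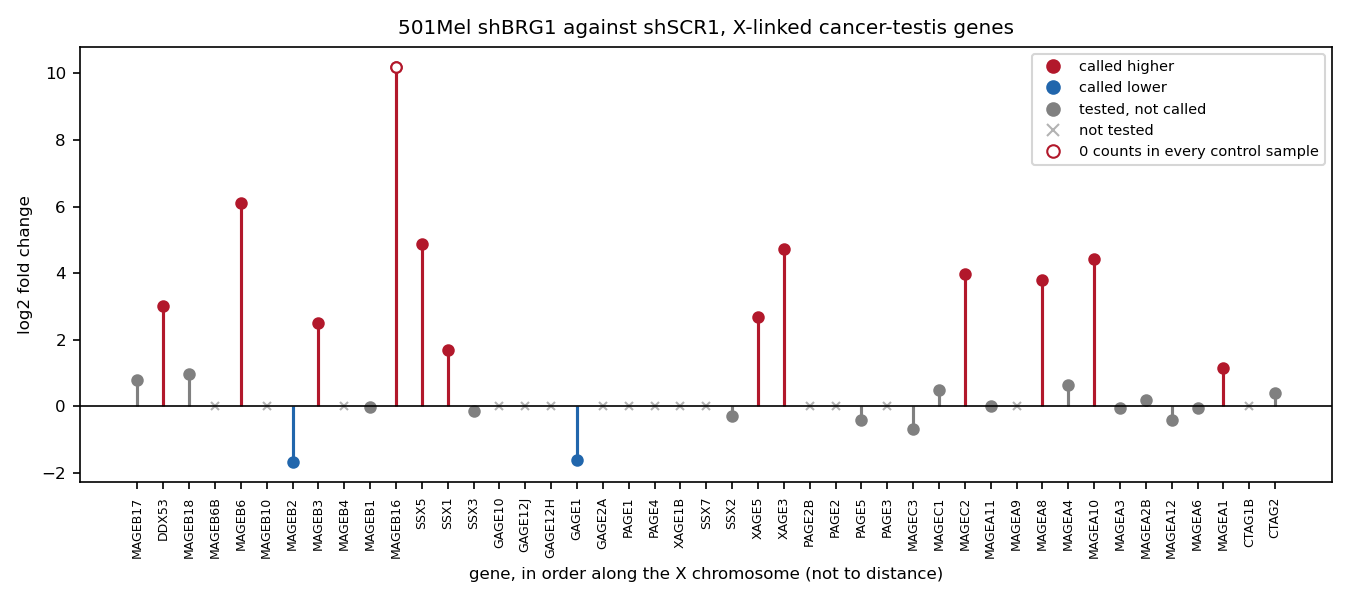
Fitted log2 fold change of the 45 X-linked cancer-testis genes for shBRG1 against shSCR1 in 501Mel cells, in their order along the chromosome and not to distance; crosses are genes that were not tested and the open point, MAGEB16, had 0 counts in every control sample. The 12 called higher are spread from DDX53 to MAGEA1, and the 2 called lower, MAGEB2 and GAGE1, lie between genes called higher.

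The calls were also read by the sequence that genes share. Among the 18 genes tested that share under 10% of their 50-base stretches with another gene, 10 were called higher and 1 lower. Among the 12 that share more, 2 were called higher and 1 lower. Of all genes tested 21.7% were called higher and 17.4% lower. MAGEA8, MAGEB16, MAGEB3, MAGEB6, XAGE3 and XAGE5 in the first group and SSX5 in the second passed the filter through the shBRG1 samples, where they are high. The counts are therefore not read against each other or against the shares of all genes. When counts were summed within each family, XAGE (log2 fold change 3.35, SE 0.29) and SSX (1.55, SE 0.10) were called higher and GAGE (-1.57, SE 0.11) lower. The sums of MAGE-A (0.47, SE 0.05), MAGE-B (-0.73, SE 0.04) and MAGE-C (0.57, SE 0.05) were not called.

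The scramble controls of 501Mel cells differed in several of these genes, which touches the calls. With shSCR2 against shSCR1, 4 of 25 genes tested were called higher (MAGEB6, MAGEA10, DDX53 and MAGEA1, by log2 values of 2.50, 1.38, 1.09 and 1.00) and 3 lower (MAGEB18, MAGEC3 and GAGE1, by -2.99, -1.88 and -1.39), beside 12.3% and 20.7% of all 19056 genes tested. That of MAGEB6 was 1.64 without shSCR2 replicate 2. MAGEA1 was not called without shSCR1 replicate 1 or 2 (0.95 and 0.98), nor DDX53 without shSCR1 replicate 3 or shSCR2 replicate 1 (0.93 and 0.91). On the common scale, 17 of 45 genes lay above all 5 scramble samples with shBRG1, among them all 12 called higher. Another 3 lay below all 5, MAGEB2 among them. The calls had already used the shSCR1 samples. The share over all genes was not computed, and these counts are not read as a result about the cancer-testis genes. PAGE2B and MAGEB6B, among the 17, had at most 8 counts in any shBRG1 sample. GAGE1, at 1.864 to 2.037 CPM with shBRG1, lay within the range of 1.537 to 5.938 CPM of the scramble samples. With shSCR2 as the control, a comparison added after the controls were seen to differ, 13 genes were called higher and 1 lower, the log2 fold change of MAGEA1 was 0.14 and that of GAGE1 -0.23, and neither was called. MAGEC3 then differed by 1.19, the reverse of its -0.69 (SE 0.09) against shSCR1.

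Silencing of MITF in 501Mel cells raised 2 cancer-testis genes, MAGEA8 and DDX53, and called none lower among the 24 tested, beside 5.59% called higher and 3.4% lower of all 17701 genes. MAGEA8 had 14 and 20 counts with shSCR2 and 69 and 100 with shMITF (log2 fold change 2.35, SE 0.43, adjusted p = 0.006275). DDX53 had 32 and 56 counts against 109 and 87 (1.23, SE 0.38, adjusted p = 0.04803), and its call was lost when either shSCR2 or either shMITF sample was left out (log2 fold changes from 0.97 to 1.45). On the common scale both genes were among 7 of 45 that lay above all 5 scramble samples with shMITF. Another 5 lay below all 5, PRAME among them. The share over all genes was not computed, and these counts are not read as a result about the cancer-testis genes. At an unadjusted p under 0.05, 2 genes were lower by edgeR, and DESeq2 called 0 lower.

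The other genes showed smaller differences. PRAME measured 686.8 ± 2.524 CPM with shSCR2 and 598.2 ± 7.236 with shMITF (n = 2 each; log2 fold change -0.20, SE 0.12, adjusted p = 0.2662). MAGEA1 (-0.58, SE 0.13, adjusted p = 0.01344) and MAGEA12 (-0.53, SE 0.13, adjusted p = 0.02317) passed the threshold on p and not that on size. MAGEC2 had 15 and 73 counts against 72 and 81 (1.07, adjusted p = 0.09634), and MAGEB6 23 and 137 against 150 and 121 (1.10, adjusted p = 0.11); neither was called. MAGEB6 was called without shSCR2 replicate 2 (1.92, adjusted p = 0.02314) and was at 0.62 without shSCR2 replicate 1. The median over the 24 genes was -0.075, against 0.010 over all genes tested. With shSCR1 as the control, again an added comparison, 5 genes were called higher and 3 lower. SSX2IP, set apart, fell by 1.78 (SE 0.14, adjusted p = 0.000237).

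The effects of the 2 hairpins in 501Mel cells were then compared with each other, as shBRG1 against shSCR1 minus shMITF against shSCR2. Of 30 genes tested, 11 differed upward and 3 downward, beside 11.8% and 15.5% of all 22255 genes. The difference was 4.51 (SE 0.20) for MAGEA10, 5.12 (SE 0.46) for MAGEB6, 2.99 (SE 0.31) for MAGEC2, 1.81 (SE 0.32) for SSX1 and 1.75 (SE 0.11) for MAGEA1, with adjusted p-values of at most 0.0002349; without shSCR2 replicate 2 that of SSX1 was 1.10. MAGEB16, SSX5, XAGE3 and MAGEA4 were the other genes called upward, and MAGEB16, SSX5 and XAGE3 had at most 1 count in each shSCR1 sample. MAGEB16, SSX5 and XAGE3 passed the filter through the shBRG1 samples, where they are high. The count of 11 is therefore not read against the share of all genes. XAGE3 was not called without shSCR2 replicate 2 (2.84, adjusted p = 0.2652). DDX53 (1.78, SE 0.36, adjusted p = 0.0006724) and MAGEA8 (1.42, SE 0.49, adjusted p = 0.02554), the genes that rose with both hairpins, also differed between them, that of MAGEA8 losing its call without shSCR1 replicate 1, shSCR2 replicate 1 or shMITF replicate 1 (1.09 to 1.23). MAGEB2 differed by -1.64 (SE 0.14, adjusted p = 2.486e-07). The differences of GAGE1 (-1.36) and MAGEC3 (-1.23) were not called without shMITF replicate 2, at -0.66 and -0.48, and that of MAGEA4 (1.05) fell to 0.84. The subtraction uses different controls, and the difference between the controls is part of it.

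In Hermes 3A cells no cancer-testis gene was called higher with either hairpin, and SSX1 and SSX5 fell with both. Both comparisons had only these 2 genes past the filter on low counts, and both use the same shSCR samples. With shBRG1, 5.78% of 17222 genes tested were called higher and 3.47% lower, and with shMITF 3.35% and 4.04% of 16508. The count of 0 genes higher was the same by edgeR, at an unadjusted p under 0.05 and by DESeq2. It covers only these 2 genes, which both fell, and a rise in the other genes could not be tested. Of the 33 genes at 0 with shSCR, 2 had any count with shBRG1: MAGEA1 with 6, 0 and 0 and PRAME with 2, 0 and 0. Of the 46 genes 32 were not listed for Hermes 3A shMITF cells, and the 31 of these that were listed for shSCR had 0 counts there.

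SSX1 had 345, 232 and 286 counts with shSCR, 110, 170 and 119 with shBRG1 and 129, 85 and 66 with shMITF. It fell by 1.38 on the log2 scale (SE 0.13, adjusted p = 2.174e-10) with shBRG1 and by 1.24 (SE 0.23, adjusted p = 0.009594) with shMITF. SSX5 had 24, 16 and 26 counts with shSCR, 10, 11 and 4 with shBRG1 and 4, 6 and 1 with shMITF, and fell by 1.65 (SE 0.43, adjusted p = 0.001605) and by 2.15 (SE 0.55, adjusted p = 0.03079). No knockdown sample reached the level of a control sample in either gene. With shMITF, SSX1 was not called without shSCR replicate 1 (-1.18, adjusted p = 0.06128) or 2 (-1.28, adjusted p = 0.05297), and SSX5 was not called without any 1 of the 3 shSCR replicates or without shMITF replicate 3 (log2 fold changes of -1.78 to -2.25).

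**Figure D5:**
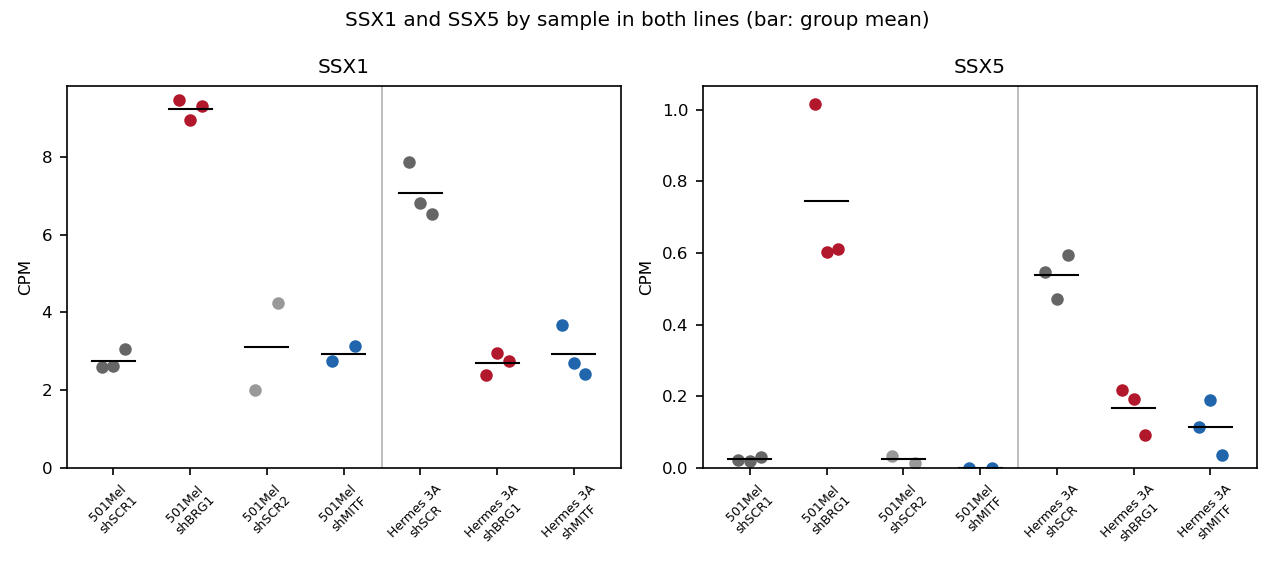
CPM on the common scale of SSX1 (left) and SSX5 (right) in each of the 19 samples, by group, with bars at the group means (n = 3, 3, 2, 2, 3, 3 and 3). With shBRG1 the points stand above the controls in 501Mel cells and below them in Hermes 3A cells.

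The direction of SSX1 and SSX5 with shBRG1 thus differed between the lines, and the difference itself was tested in 1 fit of both lines. It was 3.04 on the log2 scale for SSX1 (SE 0.16, adjusted p = 8.249e-19) and 6.47 for SSX5 (SE 0.69, adjusted p = 1.993e-10). Of the 30 genes that passed the filter, 19 were at 0 in every Hermes 3A shSCR and shBRG1 sample, MAGEB6, MAGEB16, MAGEB2 and DDX53 among them. Their difference could not be estimated, with SEs of 3.203 or more, and edgeR could not call them. Of the 11 others 6 differed upward, among them MAGEA10, MAGEB17, MAGEC2 and XAGE5, and edgeR and DESeq2 called 0 downward, with 0 at an unadjusted p under 0.05. Over all 21697 genes the shares were 12% upward and 14.9% downward, and the counts are not read against them. For shMITF, edgeR called 0 of 10 genes different between the lines, beside 2% of all 19284 genes called higher and 0.643% lower. At an unadjusted p under 0.05, 1 of the 10 was higher and 0 lower, and DESeq2 called 0; that of MAGEA8, at 0 in Hermes 3A cells, could not be estimated. SSX1 differed by 1.17 (SE 0.46, adjusted p = 0.2056).

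Other genes of like expression were read beside these. Of 27 other X-linked cancer-testis genes listed by hand, 15 were in the files and 10 were tested with shBRG1 in 501Mel cells, and edgeR called 8 higher and 0 lower, with 0 lower at an unadjusted p under 0.05, beside 21.7% and 17.4% of all genes. Of the 8, 5 had a mean under 10 counts in the controls, and among all genes under 1 CPM 40.7% were called higher. Among them VCX3A rose by 5.87 on the log2 scale (SE 0.20), SAGE1 by 4.72 (SE 0.42), CT55 by 2.17 (SE 0.11) and PASD1 by 1.90 (SE 0.07), while CSAG1 measured 60.97 ± 0.8703 CPM with shSCR1 and 59.67 ± 1.629 with shBRG1. With shMITF, 2 of 7 rose (VCX3A and SAGE1), and in Hermes 3A cells none was tested. At baseline all 5 tested were higher in 501Mel, beside 20.1% of all genes called higher. Because none passed the filter within Hermes 3A cells, a call of higher was nearly fixed by the filter. The count is therefore not read against that share. Of 26 autosomal germline genes, 13 were tested with shBRG1 in 501Mel cells and 7 rose, 3 of these from a mean under 10 counts, among the 7 the synaptonemal complex gene SYCP1 (2.03, SE 0.39), the acrosomal gene ACRBP (2.18, SE 0.29) and the piRNA pathway gene PIWIL2 (1.25, SE 0.19). With shMITF, CTNNA2 rose and TEX15 fell among 8 tested in 501Mel cells, and TEX15 fell among 7 in Hermes 3A cells, where shBRG1 raised CTNNA2 and CABYR among 8.

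Of the ubiquitously expressed MAGE genes, which are not restricted to testis, 2 of 8 tested rose with shBRG1 in 501Mel cells, close to the 21.7% of all genes, MAGEE1 by 1.27 (SE 0.12) and MAGEE2 by 1.09 (SE 0.37). In each of the other knockdown comparisons 8 were tested and edgeR called 0, although some passed the threshold on p alone in Hermes 3A cells, such as MAGEF1 with shMITF (0.71, adjusted p = 0.00693) and MAGEE1 with shBRG1 (0.93, adjusted p = 5.77e-09). Of 21 DNA methylation and silencing genes tested with shBRG1 in 501Mel cells, 1 was called higher and 2 lower, beside 21.7% and 17.4% of all genes. Their median log2 fold change was -0.093. The de novo methyltransferase DNMT3A fell by 1.55 (SE 0.07, adjusted p = 6.667e-16), the demethylating dioxygenase TET1 fell by 1.82 (SE 0.08, adjusted p = 1.661e-15) and MORC2, a silencing ATPase, rose by 1.27 (SE 0.05, adjusted p = 6.047e-17). DNMT1, the maintenance methyltransferase, measured 185.6 ± 13.91 CPM with shSCR1 and 109.2 ± 4.621 with shBRG1 (-0.76, SE 0.05), under the threshold of size. In Hermes 3A cells with shBRG1 1 of 21 was called, HELLS, which fell, and with shMITF edgeR called 0 of 21 in either line. The part of these genes in the changes of the cancer-testis genes was not tested.

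Markers of several cell types moved with shBRG1 in 501Mel cells, where 21.7% of all genes tested were called higher and 17.4% lower. All 8 melanocyte markers fell, and their summed level went from between 29370 and 31570 CPM with shSCR1 to between 3119 and 3414 with shBRG1. Of 6 fibroblast markers 5 were tested and 4 rose (COL1A1, COL3A1, LUM and PDGFRB), their sum going from between 3.718 and 5.16 CPM to between 16.15 and 19.85. The sum of 6 keratinocyte markers lay between 27.52 and 29.93 CPM and between 30.49 and 32.93, with TP63 called higher and KRT1 at 0 in every shBRG1 sample. Markers of testis germ cells summed to at most 1.018 CPM in every 501Mel sample, and 1 of the 5 listed was tested and not called, with DAZL and TNP1 at 0 in every shSCR1 sample and PRM1 in every shBRG1 sample. In the other comparisons melanocyte markers fell in number 2 of 8 (501Mel shMITF), 3 of 8 (Hermes 3A shBRG1) and 3 of 8 (Hermes 3A shMITF). Of all genes tested, 3.4%, 3.47% and 4.04% were called lower in these comparisons. Fibroblast markers rose in number 2 of 3, 2 of 4 and 2 of 4, beside 5.59%, 5.78% and 3.35% of all genes called higher. Keratinocyte and testis markers gave 0 calls there. Their part in the results was not tested.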

How the data were processed

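RNA-seq counts of 19 samples in 7 groups, taken from the sample labels, were used. The deposited values are unnormalized read counts, 1 per Ensembl gene identifier. The submitters' processing notes name CASAVA 1.8, TopHat 1.4.1, Bowtie 0.12.7 and hg19; the counting program and annotation release are not given in the sources used here. Reads that match several near-identical copies, or genes on opposite strands, may have been dropped or divided between them.

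Each knockdown was tested against its own scramble control in edgeR 4.0.16 (R 4.3.3): TMM normalization, filterByExpr, robust glmQLFit and glmQLFTest, with Benjamini-Hochberg adjustment over all genes tested. SE was derived from the fold change and its F statistic. CPM is TMM-normalized within a comparison, or over all samples where called the common scale. Differences between effects were contrasts in 1 fit. DESeq2 1.42.0 was an alternative. The code recovered changed genes in simulated data, where only genes with many counts were changed and the spread was fixed. Changes in genes of low counts, and a spread that differs between groups, were not simulated. Gene types, coordinates and exon lengths came from GENCODE 29 (GRCh38) by Ensembl identifier, and shared sequence is the share of 50-base stretches of transcripts found in another gene; promoters came from RefSeq. Lower bounds use 3 counts over the group, and intervals and bounds cover counting error only.

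The genes, lists and markers were chosen with earlier results of these data known. Genes named in the text are the best-known family members, every called gene with at least 100 mean counts in the higher group and the largest change in each direction; XAGE3, XAGE5, MAGEB3, MAGEB17, MAGEB18 and SSX3, and the list genes CSAG1, MAGEF1 and DNMT1, were added after their values were seen.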

Additional observations from a re-analysis of the deposited data

Results flagged for a closer look

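The effect of shBRG1 differed between 501Mel and Hermes 3A cells for 6 cancer-testis genes, by the contrast of the effects in edgeR. The difference was 3.04 on the log2 scale for SSX1 and 6.47 for SSX5 (SE 0.16 and 0.69); SSX5 had 1 count in each 501Mel control sample. It was 4.05 for MAGEA10 (SE 0.67, adjusted p = 2.233e-06), which had 11 counts over the 3 Hermes 3A shSCR samples, and 2.76 for MAGEB17 (SE 0.73, adjusted p = 0.001251), with 28 counts there, of which 18 in replicate 1; leaving out each replicate in turn gave 1.92 to 3.08 for MAGEB17 and 3.23 to 4.60 for MAGEA10.

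MAGEC2 differed by 4.66 (SE 1.04, adjusted p = 0.0002053) and XAGE5 by 3.57 (SE 1.33, adjusted p = 0.02079). Each had Hermes 3A shSCR counts in 1 sample only, 7 for MAGEC2 and 5 for XAGE5. Without that sample the difference of MAGEC2 was 0.04 and that of XAGE5 -0.55, and neither was called.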

How the results depend on the processing

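In 501Mel cells with shBRG1 the count of cancer-testis genes higher was 6 and not 12 when every sample had to hold at least 10 counts, a filter that removes genes silent in the controls, and it was 12 to 14 when each replicate was left out in turn, with 2 lower throughout. The 6 include MAGEB18 (1.09), which is not among the 12. With pooled scramble controls or with shSCR2 as the control 1 gene was lower, and CTAG2 turned to -0.0392 and -0.5832, while against shSCR2 alone MAGEA4 turned to -0.0343, MAGEC1 to -0.4961, MAGEB17 to -0.0255 and MAGEC3 to 1.19. Pooled controls ended the calls of MAGEA1 (0.69) and GAGE1 (-1.14). For shMITF in 501Mel cells the count higher was 1 with DESeq2 or pooled controls, 0 with glmTreat, 4 with all groups of the line in 1 fit and 5 with shSCR1 as the control, and 1 to 2 leaving out replicates; the count lower was 1 with no filter on low counts and 3 with shSCR1, where MAGEA1 turned to 0.39 and MITF itself differed by -0.12. In Hermes 3A cells the count lower with shBRG1 was 1 with at least 10 counts or glmTreat, and with shMITF 1 with at least 10 counts, 0 with glmTreat and 0 to 2 leaving out replicates. Between the lines, at least 10 counts in every sample left 0 genes higher and 1 lower, since genes at 0 in Hermes 3A were removed, and leaving out replicates gave 22 to 24 higher. For shSCR2 against shSCR1 the count higher was 2 with library sizes and 1 with at least 10 counts, and 3 to 6 higher and 3 to 4 lower leaving out replicates. The difference of shBRG1 between lines was called higher for 10 genes with DESeq2, 1 with at least 10 counts and 5 to 6 leaving out replicates, with 0 to 1 lower; XAGE5 ranged from -0.5477, without Hermes 3A shSCR replicate 1, to 4.4261. The difference between hairpins was called higher for 6 genes with at least 10 counts and 10 to 11 leaving out replicates, with 1 to 3 lower.

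Scaling by library sizes only moved the median of all genes from 0.0526 to 0.401 on the log2 scale for shBRG1 in 501Mel cells, and the share of calls that were higher from 55.5% to 72.1%, with 15 cancer-testis genes higher. That share went from 62.2% to 72.1% for shMITF, from 62.5% to 72.5% for shBRG1 in Hermes 3A cells and from 45.3% to 56% for shMITF there; for the differences of shBRG1 between lines and from shMITF it went from 44.7% to 61.8% and from 43.2% to 57.4%. With the replicate number as a block the cancer-testis counts were 12 higher and 2 lower, 2 and 0, 0 and 2, and 0 and 2 in the 4 knockdown comparisons, as without it; deviations of same-numbered samples correlated between -0.0489 and 0.131, so that the numbers were not taken as a pairing. The causes of these changes were not tested. Low counts limit the silent genes: a mean of 100 counts was reached by 17 to 22 of the 46 genes in 501Mel groups.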
